A study of Homo sapiens with 6 samples.

Results

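The FOXO factors FOXO1, FOXO3 and FOXO4 were examined together with 5 genes known for FOXO or stress control of PI3K and mTOR signalling, DEPP1, DDIT4, SESN3, PIK3IP1 and IRS2, in human SK-OV3 ovarian cancer cells. These 8 genes were found by their symbol among the 59653 rows of the count table, and all 8 passed the filter on low counts. The group was chosen by the differences between siPVT1 and siControl already known from these libraries, so that its fold changes are a description and carry no p-value. The libraries, 3 for each group, came from cells taken 48 h after transfection with a pool of siRNAs to the lncRNA PVT1 (siPVT1) or with a non-targeting pool (siControl). The cells are labelled wildtype, and both groups passed through transfection with siRNA. The design holds a single cell line and a single pool against PVT1, so that effects of lowering PVT1 and other effects of that pool cannot be told apart. The sources do not state whether libraries of a group came from separate cultures, and the errors cover only the spread between these libraries.

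FOXO factors are forkhead transcription factors at the end of the insulin and growth factor pathway. When PI3K is active, AKT phosphorylates them and they are held in the cytoplasm by 14-3-3 proteins, and when signalling falls they enter the nucleus and switch on genes of cell cycle arrest, redox defence, autophagy and feedback on the pathway. DEPP1 is a small protein known as a FOXO target and as induced by progestins and fasting. DDIT4, also called REDD1, restrains mTORC1 through the TSC complex and is induced by low oxygen, glucocorticoids and amino acid stress. SESN3 is a sestrin, of a family of inhibitors of mTORC1, and is induced by FOXO factors. PIK3IP1 is a membrane protein that inhibits the catalytic subunit of PI3K. IRS2 is an adaptor that passes the signal of the insulin and IGF1 receptors to PI3K, so it is an activator of the pathway and not an inhibitor.

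The bases before the transcription start are shown for DEPP1 and DDIT4, the genes with the largest change and the highest level, and for PIK3IP1 and IRS2, the genes of the group with the second largest rise and the only fall. The sequences are the 250 bases before the RefSeq start in GRCh38.p14, on the strand of the gene, taken for DEPP1 from the minus strand of chr10:44978810-44979059, for DDIT4 from the plus strand of chr10:72273674-72273923, for PIK3IP1 from the minus strand of chr22:31292535-31292784 and for IRS2 from the minus strand of chr13:109786584-109786833. Capitals mark the FOXO element GTAAACA and the hypoxia core ACGTG or GCGTG, on either strand.
DEPP1: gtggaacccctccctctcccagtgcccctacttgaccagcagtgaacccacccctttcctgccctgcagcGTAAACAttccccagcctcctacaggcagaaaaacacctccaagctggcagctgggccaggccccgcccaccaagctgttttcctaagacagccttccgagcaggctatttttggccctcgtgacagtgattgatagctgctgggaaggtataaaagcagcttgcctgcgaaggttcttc
DDIT4: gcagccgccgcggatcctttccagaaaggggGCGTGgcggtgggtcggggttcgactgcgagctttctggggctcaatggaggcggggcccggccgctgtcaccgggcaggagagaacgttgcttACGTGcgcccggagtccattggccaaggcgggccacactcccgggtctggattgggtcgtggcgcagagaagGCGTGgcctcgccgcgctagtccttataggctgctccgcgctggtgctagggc
PIK3IP1: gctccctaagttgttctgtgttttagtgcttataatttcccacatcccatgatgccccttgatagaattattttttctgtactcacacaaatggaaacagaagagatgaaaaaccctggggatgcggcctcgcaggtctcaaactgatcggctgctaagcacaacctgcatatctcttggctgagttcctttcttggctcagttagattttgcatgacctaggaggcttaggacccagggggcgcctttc
IRS2: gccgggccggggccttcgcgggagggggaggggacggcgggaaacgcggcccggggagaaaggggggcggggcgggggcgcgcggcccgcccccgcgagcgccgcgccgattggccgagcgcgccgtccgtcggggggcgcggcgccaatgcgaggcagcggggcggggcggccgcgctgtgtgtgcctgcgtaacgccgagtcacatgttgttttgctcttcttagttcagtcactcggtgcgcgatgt

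All 8 genes had an entry in the RefSeq promoter table. The FOXO element GTAAACA, or its reverse complement, stood in the window of DEPP1 alone among the 8, from 180 to 174 bases before the start, and in 2.98% of 27305 promoters. The shorter forkhead core TAAACA, which lies inside the FOXO element, was found in the same place in DEPP1, in no other of the 8 windows, and in 11.1% of all promoters. ACGTG stood once in DDIT4, from 125 to 121 bases before the start, and in 18.7% of all promoters. GCGTG was in DDIT4, FOXO3 and FOXO4 and in 31.9% of all promoters. The E-box CACGTG, which contains ACGTG, the CRE core TGACGT and the ATF4 element core TGATGNAAN were in none of the 8 windows, against 6.49%, 7.42% and 3.18% of all promoters, and the steroid receptor core AGAACA was in PIK3IP1 alone and in 12.4% of all promoters. CCAAT was in FOXO1, DDIT4 and IRS2 and in 33.0% of all promoters. The GC content of the windows ran from 42.8% in SESN3 to 80.4% in FOXO3, with 57.2% in DEPP1, 68.8% in DDIT4 and a median of 58.0% over all promoters. A match is a description of the letters in this window and says nothing of binding.

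The libraries held between 28383171 and 35059576 estimated counts each. The targeted lncRNA PVT1 had 3271, 4166 and 3365 normalized counts in siControl and 2328, 2106 and 2041 in siPVT1, each in the order of replicates 1, 2 and 3, a log2 ratio of siPVT1 over siControl (log2FC) of -0.74 with a standard error (SE) of 0.102 (adjusted p = 0.000465 by edgeR quasi-likelihood with Benjamini-Hochberg adjustment). Across the 19008 genes tested, 21.4% were past both thresholds, that is, adjusted p below 0.05 together with a log2FC of 1 or more in size, with 11.6% higher and 9.86% lower in siPVT1, and in 66.3% of all genes the libraries of the groups did not overlap. These were 2202 higher and 1874 lower genes, a split that turned to 1834 and 2357 with scaling by the total count, which moved the median log2FC of all genes from -0.01 to -0.15.

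The labelled line was checked against 6 epithelial markers, all detected, with a summed normalized count of 24480 to 27159 in siControl and 27847 to 30300 in siPVT1. They did not move together, as KRT19 rose (log2FC 2.28, adjusted p = 0.00013 by edgeR quasi-likelihood), KRT18 and KRT8 had log2FC values of 0.36 and 0.31, KRT7 and ERBB2 of -0.52 and -0.44, and MUC16 had overlapping libraries. ERBB2, which SK-OV3 cells are known to carry in amplified form, stood at only 8.85 ± 0.39 CPM per kilobase of transcript in siControl, where CPM is the count scaled to the library size, below KRT8 at 155 ± 10.3 and below the endothelial cadherin CDH5 at 15.9 ± 0.277 (SD, n = 3 each). The identity of the line was not tested. Of 8 markers of other cell types, CD3E was at 0 and PTPRC and DCN had at most 2 counts, MYH11 had at most 11 and ALB at most 21. The macrophage marker CD68 had overlapping libraries, with 585 ± 23.6 and 715 ± 156 normalized counts (SD, n = 3 each), and both endothelial markers rose, CDH5 by a log2FC of 2.21 and PECAM1 by 2.97, from 37.6 ± 3.92 to 296 ± 23.8 normalized counts (SD, n = 3 each). The summed normalized count of the 8 ran from 2623 to 2666 in siControl and from 9039 to 11581 in siPVT1, most of it from CDH5. The part of these markers in the results was not tested, and in bulk RNA fewer cells with a transcript and less of it per cell cannot be told apart.

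Among the 8 genes, DEPP1, PIK3IP1, DDIT4, FOXO1 and SESN3 were higher in siPVT1 past both thresholds, IRS2 was lower past both, and FOXO4 and FOXO3 were not past both. This is 5 higher and 1 lower of 8, and since the group was chosen by this contrast nothing is read from the count. In 7 of the 8 genes, all but FOXO3, the libraries of the groups did not overlap, beside 66.3% of all genes tested, and nothing is read from this count either. The median log2FC of the 8 was 1.26, beside -0.01 over all genes tested, and for the same reason nothing is read from this difference.

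**Figure D1:**
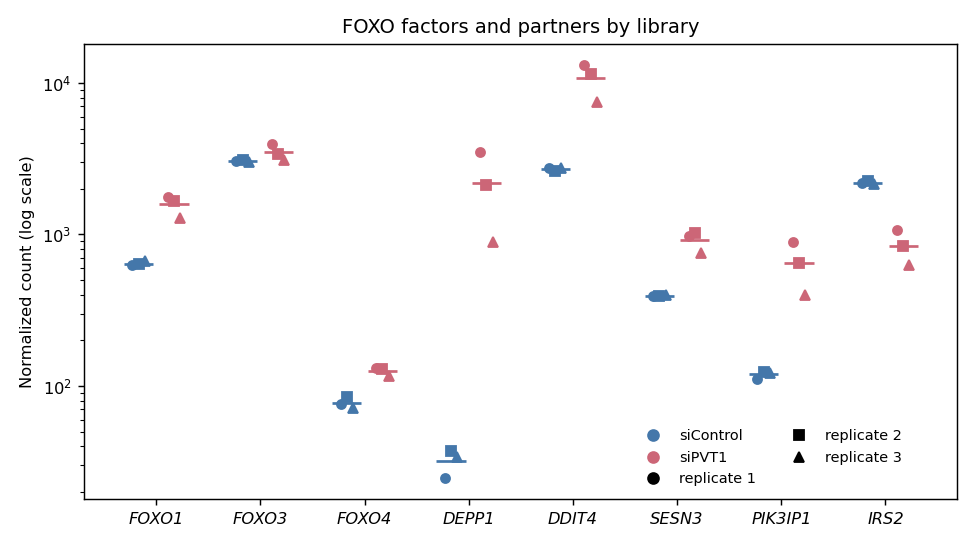
Normalized counts (TMM, log axis) of the 8 genes in each library, with siControl in blue, siPVT1 in red, a symbol for each replicate number and a line at the group mean. The groups are apart for 7 genes and overlap for FOXO3, and DEPP1 moves from between 24.6 and 37.0 to between 892 and 3514.

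Of FOXO1, FOXO3 and FOXO4, FOXO1 showed the largest difference. FOXO1 (ENSG00000150907, minus strand of chromosome 13, 40555667 to 40666641 in GRCh38) had 627, 634 and 663.5 normalized counts in siControl and 1779, 1665 and 1286 in siPVT1, in the same order. The lowest siPVT1 library stood above the highest siControl library, and the mean was 2.46-fold higher, 1577 ± 258 against 642 ± 19.3 (SD, n = 3 each), a log2FC of 1.30 (SE 0.119). FOXO1 is the FOXO factor best known for insulin control of metabolism.

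FOXO3 (ENSG00000118689, plus strand of chromosome 6, 108559835 to 108684774) is the factor best known for stress resistance and longevity and had 3069, 3121 and 3015 normalized counts in siControl and 3949.7, 3397 and 3089.9 in siPVT1. The siPVT1 replicate 3 lay below siControl replicate 2, and the log2FC was 0.18 (SE 0.0886), with neither threshold passed. FOXO3 has a near-identical copy on chromosome 17, FOXO3B, between which reads are divided by estimation. FOXO3B took 14.5% of the summed counts of both in siControl and 10.2% in siPVT1, and had 518 ± 28.8 and 396 ± 49.9 normalized counts (SD, n = 3 each) with a log2FC of -0.39 (SE 0.107, adjusted p = 0.0145 by edgeR quasi-likelihood). The log2FC of FOXO3 with the counts of FOXO3B added was 0.11 (SE 0.0876).

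FOXO4 (ENSG00000184481, plus strand of chromosome X, 71095851 to 71103532) is regulated by AKT in the same way and had 75.6, 84.4 and 71.8 normalized counts in siControl and 131, 129 and 117 in siPVT1. Every siPVT1 library was above every siControl library, and the mean was 1.63-fold higher, with a log2FC of 0.70 (SE 0.13) below the fold threshold. FOXO6, the remaining member of the family, known mainly from the nervous system, had between 8 and 12 counts in siControl libraries and between 38 and 61 in siPVT1 libraries, and rose by a log2FC of 2.39 (SE 0.296, adjusted p = 0.000255 by edgeR quasi-likelihood).

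Levels of different genes were compared as CPM per kilobase of the GENCODE canonical transcript. On this scale FOXO3 stood at 13.6 ± 0.234 in siControl and 15.4 ± 1.92 in siPVT1, FOXO1 at 3.58 ± 0.108 and 8.79 ± 1.44, and FOXO4 at 0.683 ± 0.0571 and 1.11 ± 0.0664 (SD, n = 3 each). The order FOXO3, FOXO1, FOXO4 was the same in all 6 libraries. Of the summed level of the 3 factors, FOXO1 made up 20.1 ± 0.762% in siControl and 34.7 ± 1.85% in siPVT1, and FOXO3 made up 76.1 ± 0.56% and 60.9 ± 1.74% (SD, n = 3 each). FOXO4 was at 3.83 ± 0.272% and 4.43 ± 0.337% (SD, n = 3 each), with siControl replicate 2 at 4.13% above siPVT1 replicate 1 at 4.07%. The sum itself was 17.8 ± 0.221 in siControl and 25.3 ± 3.34 in siPVT1 (SD, n = 3 each). FOXO6 was left out of the sum because its transcript model has the length of a coding region only. FOXO3B, at 2.85 ± 0.158 in siControl and 2.18 ± 0.275 in siPVT1 (SD, n = 3 each), was left out too. The shares therefore rest on the estimated split of reads between FOXO3 and FOXO3B.

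**Figure D2:**
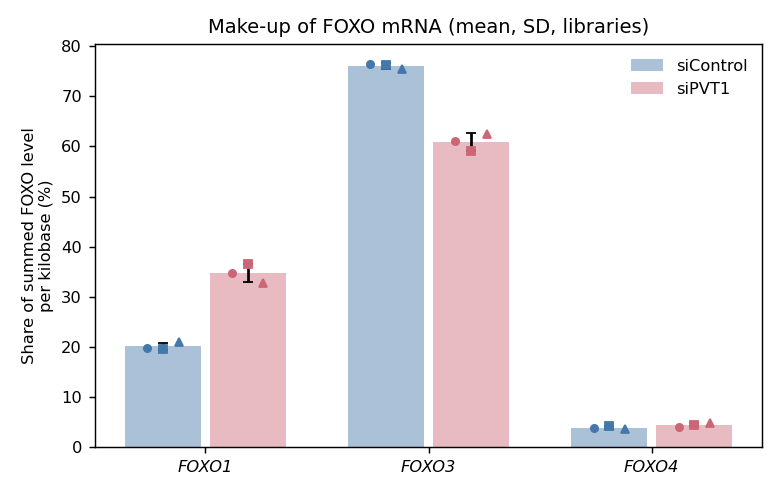
Share of each FOXO factor in the summed level per kilobase of FOXO1, FOXO3 and FOXO4, in percent, with bars at the mean of 3 libraries, error bars for the SD and a symbol for each library. FOXO3 remains the largest share in both groups, at 76.1% and 60.9%, while FOXO1 goes from 20.1% to 34.7%.

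DEPP1 differed most of the 8 genes. DEPP1 (ENSG00000165507, minus strand of chromosome 10, 44970981 to 44978809) had 24.6, 37.0 and 34.0 normalized counts in siControl and 3514, 2129 and 892 in siPVT1. The groups were far apart and the siPVT1 libraries also differed among themselves by 3.94-fold from the lowest to the highest, against 1.51-fold in siControl. The mean was 68.3-fold higher in siPVT1, 2178 ± 1312 against 31.9 ± 6.52 (SD, n = 3 each), a log2FC of 6.09 (SE 0.58) that ranked 12 from the top among the 19008 genes. The siControl libraries rest on only 26, 36 and 37 counts, which limits the precision of the fold. On the scale per kilobase DEPP1 had the lowest level of the 8 genes in siControl, at 0.485 ± 0.0991, and the second highest mean in siPVT1, at 33.1 ± 19.9 (SD, n = 3 each), although siPVT1 replicate 3, at 13.6, was slightly below FOXO3 in that library. In siPVT1 the levels of FOXO1 (8.79 ± 1.44) and PIK3IP1 (8.61 ± 3.32), and those of IRS2 (3.34 ± 0.859) and SESN3 (3.09 ± 0.482; SD, n = 3 each), lay within each other's spread.

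DDIT4 (ENSG00000168209, plus strand of chromosome 10, 72273919 to 72276036) had 2738, 2637 and 2739 normalized counts in siControl and 13195, 11397 and 7492 in siPVT1. The siControl libraries lay within 1.04-fold of each other and every siPVT1 library was above them. The mean was 3.95-fold higher, 10695 ± 2916 against 2705 ± 58.6 (SD, n = 3 each), with a log2FC of 1.98 (SE 0.185). DDIT4 had the highest level per kilobase of the 8 genes in both groups, 50 ± 1.08 and 198 ± 53.9 CPM per kilobase (SD, n = 3 each). Its antisense row DDIT4-AS1 had at most 2 counts in a siControl library and from 6 to 9 in siPVT1 libraries, and the strand setting of the counting is not stated, so reads of the pair may not be told apart. Its paralog DDIT4L, also an mTORC1 inhibitor, had 83.3 ± 5.63 and 116 ± 25.3 normalized counts (SD, n = 3 each) with a log2FC of 0.47 (SE 0.18, adjusted p = 0.0542 by edgeR quasi-likelihood).

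SESN3 (ENSG00000149212, minus strand of chromosome 11, 95165513 to 95232541) had 390.1, 391 and 396 normalized counts in siControl and 973, 1021 and 753 in siPVT1. The siControl libraries agreed within 1.01-fold, and the mean was 2.33-fold higher in siPVT1, a log2FC of 1.22 (SE 0.118). The other sestrins are also known as inhibitors of mTORC1. SESN2, which is known as a target of ATF4, fell, with 2857 ± 28.6 normalized counts in siControl and 1203 ± 119.7 in siPVT1 (SD, n = 3 each) and a log2FC of -1.25 (SE 0.0789, adjusted p = 9.42e-06 by edgeR quasi-likelihood). SESN1 stood at 989 ± 59.5 and 1387 ± 364 normalized counts (SD, n = 3 each), with overlapping libraries and a log2FC of 0.49 (SE 0.174, adjusted p = 0.0424 by edgeR quasi-likelihood) below the fold threshold. Whether the sestrins differ from each other in response was not tested.

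PIK3IP1 (ENSG00000100100, minus strand of chromosome 22, 31281594 to 31292534) had 111.5, 124.5 and 122 normalized counts in siControl and 897, 645 and 398 in siPVT1. The lowest siPVT1 library was above every siControl library, and the spread within siPVT1 was 2.25-fold. The mean was 5.41-fold higher, 647 ± 249.5 against 119 ± 7.0 (SD, n = 3 each), a log2FC of 2.43 (SE 0.279). The divergent transcript PIK3IP1-DT had at most 7 counts in a library and did not pass the filter.

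IRS2 (ENSG00000185950, minus strand of chromosome 13, 109752695 to 109786583) went the other way, with 2172, 2263 and 2151 normalized counts in siControl and 1064, 842.5 and 629 in siPVT1. The groups did not overlap, and the mean was 2.60-fold lower, 845 ± 217.5 against 2195 ± 59.5 (SD, n = 3 each), a log2FC of -1.38 (SE 0.164). Its paralog IRS1, the other widely used insulin receptor substrate, stood at 1684 ± 17.4 and 1826 ± 81.1 normalized counts (SD, n = 3 each) with a log2FC of 0.12 (SE 0.0578, adjusted p = 0.119 by edgeR quasi-likelihood). IRS4 had 0 counts in every library, where a count of 0 allows up to 3 counts per library.

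**Figure D3:**
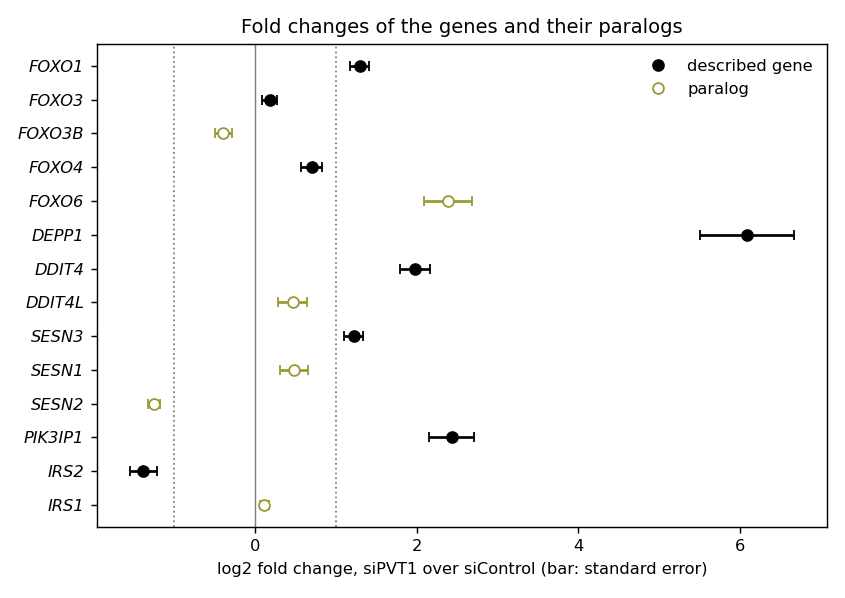
Log2FC of siPVT1 over siControl with its SE for the 8 genes (filled) and their tested paralogs (open), with dotted lines at the fold threshold of 1 in either direction. DEPP1 stands apart at 6.09, SESN2 at -1.25 and SESN3 at 1.22 lie on opposite sides of 0, and IRS2 at -1.38 lies below IRS1 at 0.12.

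The siPVT1 libraries differed among themselves in all 8 genes. Replicate 3 had the lowest normalized count of the siPVT1 libraries in 8 of 8 genes, where it was the lowest in 40.6% of all genes tested. For the 5 genes past both thresholds as higher this placed replicate 3 nearest to siControl, at log2 ratios to the siControl mean of 4.83 in DEPP1, 1.74 in PIK3IP1, 1.47 in DDIT4, 1.0 in FOXO1 and 0.94 in SESN3. For IRS2 it placed replicate 3 farthest from siControl, at -1.80 beside -1.04 in replicate 1. Among all genes past both thresholds as higher, replicate 3 was the lowest siPVT1 library in 1496 of 2202, a larger part than over all genes tested. For the 5 higher genes this is the nearer comparison, and nothing is read from the count of 8. PVT1 itself was also lowest in replicate 3, at 2041 normalized counts, and highest in replicate 1, at 2328. The coefficient of variation between siPVT1 libraries was 60.2% in DEPP1, 38.6% in PIK3IP1, 27.3% in DDIT4 and 25.7% in IRS2, against 5.97% in FOXO4, and between siControl libraries it was at most 20.4% (DEPP1) and from 0.768% to 8.36% in the other 7 genes. What sets the spread was not tested.

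**Figure D4:**
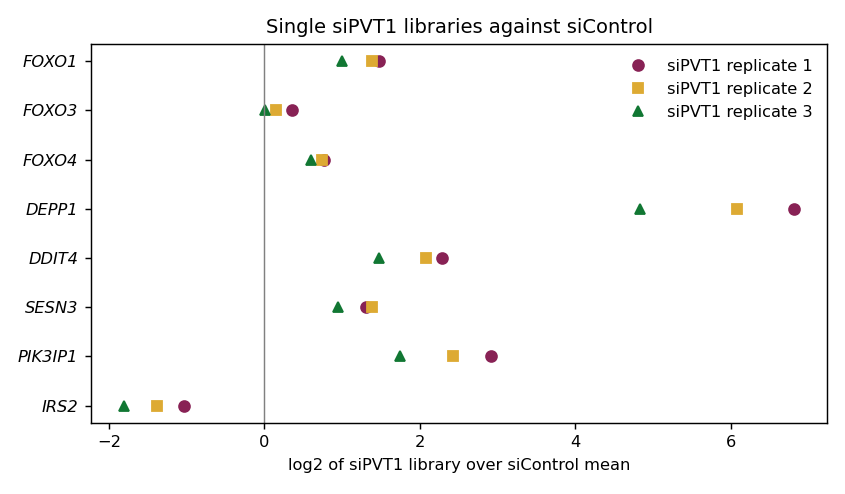
Log2 ratio of each siPVT1 library to the mean of siControl for the 8 genes, with a colour and symbol for each replicate. Replicate 3 is the leftmost point in every gene, from 4.83 in DEPP1 to -1.80 in IRS2.

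The genes whose profile over the 6 libraries was nearest to that of a member were named by the root mean square difference of log2 CPM relative to the siControl mean. For DEPP1 they were PTGES (0.444), PPFIA4 (0.61) and MIR210HG (0.721), of which PTGES encodes a prostaglandin E synthase and MIR210HG hosts a hypoxia-induced microRNA. For DDIT4 they were LOX (0.0655), DLG4 (0.0667) and TRPT1 (0.0729), of which LOX encodes lysyl oxidase. For SESN3 they were SAMD12 (0.0327), ETV1 (0.0351) and RALGPS2 (0.0362), of which ETV1 is an ETS factor. The distances of DEPP1 are larger, and few genes had a change of its size. PTGES, PPFIA4 and MIR210HG had means of only 6.85, 8.69 and 6.09 normalized counts in siControl, which limits the precision of their distances. The measure takes in the difference between the groups, so a near profile need not mean shared variation within a group.

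Genes known as FOXO targets were counted from a list of 28 that holds none of the 8 genes. This list and those below were chosen with earlier results of these data known, so nothing is read from their shares. Of 25 tested, 11 were higher, 1 was lower and 13 were not past both thresholds, a share of 48.0% beside 21.4% of all genes, and the median log2FC was 0.68. BNIP3, a mitophagy receptor that is also a hypoxia target, rose from 1507 ± 38.9 to 13033 ± 923 normalized counts (SD, n = 3 each; log2FC 3.11, SE 0.0693). SOD2, the mitochondrial superoxide dismutase, rose from 10100 ± 449 to 64198 ± 2946 (SD, n = 3 each; log2FC 2.67, SE 0.0623). CCNG2, a cyclin linked to cell cycle exit, had a log2FC of 2.79 (SE 0.182). These genes had adjusted p-values of 1.9e-07, 2.34e-07 and 1.09e-05 by edgeR quasi-likelihood. The gene past both thresholds as lower was TXNIP, an inhibitor of thioredoxin, which had 4339 ± 127 and 1224 ± 675.5 normalized counts (SD, n = 3 each) with a log2FC of -1.83 (SE 0.362, adjusted p = 0.00299 by edgeR quasi-likelihood). Many of these genes are induced by other factors too, and which factor acted was not tested. G6PC1, PCK1 and TRIM63, targets known from liver and muscle, had at most 3 counts in any library.

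Of 23 regulators of FOXO proteins, all tested, 2 were higher and 2 lower past both thresholds, a share of 17.4%, and the median log2FC was -0.08. SGK2, a kinase of the serum and glucocorticoid regulated family, rose by a log2FC of 1.86 from few counts (5.80 ± 2.57 to 21.5 ± 7.40 normalized counts, SD, n = 3 each, adjusted p = 0.00803 by edgeR quasi-likelihood). The deacetylase SIRT1 and the acetyltransferase CREBBP, which act on FOXO proteins in opposite ways, fell with log2FC values of -1.0 and -1.02 (adjusted p = 1.42e-05 and 3.11e-05 by edgeR quasi-likelihood), at the edge of the fold threshold. Without siPVT1 replicate 1 neither was past it, as 0 regulators were then called lower. None of the 14-3-3 genes of the list was past both thresholds, beside 21.4% of all genes that were. SFN was just short of the fold threshold, with a log2FC of -0.99 (adjusted p = 2.32e-05 by edgeR quasi-likelihood). YWHAQ, YWHAE, YWHAH and YWHAB had log2FC values of -0.39, 0.31, 0.43 and -0.23 with an adjusted p-value under 0.05, and YWHAZ and YWHAG did not reach it.

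Of 21 genes of PI3K input, 20 were tested, 4 were higher and 3 lower past both thresholds, a share of 35% with a median log2FC of 0.12. PIK3CD and PIK3CG, catalytic subunits known best from leukocytes, rose by 1.11 and 1.95, and the adaptor GAB2 rose by 1.77 (adjusted p = 3.09e-06, 6.84e-05 and 3.34e-06 by edgeR quasi-likelihood). INPP4B, a phosphatase that removes a PI3K product, fell, with 1038 ± 29.0 normalized counts in siControl and 207 ± 19.3 in siPVT1 (SD, n = 3 each) and a log2FC of -2.32 (SE 0.0876, adjusted p = 1.3e-06 by edgeR quasi-likelihood). TRIB3, a pseudokinase that binds AKT, and PIK3R2, a regulatory subunit of PI3K, had log2FC values of -1.96 and -1.03 (adjusted p = 6.28e-07 and 3.9e-05 by edgeR quasi-likelihood).

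The list of mTOR complexes holds subunits, effectors and the RRAG, LAMTOR and RHEB genes, whose proteins act upstream of mTORC1. Most of the list had an adjusted p-value under 0.05, with a single gene past the fold threshold. Of 21, all tested, 17 had an adjusted p-value under 0.05, where 58.4% of all genes did, and 1 was past both thresholds, a share of 4.76% beside 21.4% of all genes. The median log2FC was -0.08. The gene past both thresholds was EIF4EBP2, a repressor of translation held off by mTORC1, with 5094 ± 107 and 2321 ± 201 normalized counts (SD, n = 3 each) and a log2FC of -1.13 (SE 0.0713, adjusted p = 9.2e-06 by edgeR quasi-likelihood). Of 16 further inhibitors of mTORC1, all tested, 1 was higher and 3 were lower past both thresholds, a share of 25.0% with a median of 0.12. CASTOR2, of the arginine-sensing CASTOR family, rose by 2.01 (SE 0.107, adjusted p = 4.39e-06 by edgeR quasi-likelihood). Besides SESN2, NPRL3, a subunit of GATOR1, and TBC1D7, a subunit of the TSC complex through which DDIT4 acts, fell with log2FC values of -1.65 and -1.05 (adjusted p = 3.7e-06 and 1.8e-05 by edgeR quasi-likelihood).

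Other forkhead factors were taken as rows whose symbol is FOX, a letter from A to S and a number, without FOXO1, FOXO3 and FOXO4. Copies with a further letter, such as FOXO3B, were included. Of 50 such rows 26 were tested, 3 were higher and 5 lower past both thresholds, a share of 30.8%, and the median log2FC was -0.24. Those higher were FOXA2, FOXO6 and FOXD2, with log2FC values of 2.53, 2.39 and 1.62 from at most 15.1 normalized counts on average in siControl (adjusted p = 8.63e-05, 0.000255 and 0.000516 by edgeR quasi-likelihood). FOXD1 fell, with 6549 ± 154 normalized counts in siControl and 2824 ± 121 in siPVT1 (SD, n = 3 each; log2FC -1.21, adjusted p = 2.3e-06 by edgeR quasi-likelihood), and FOXP4 and FOXF2 fell by log2FC values of -1.22 and -1.15 (adjusted p = 1.33e-05 and 0.000521 by edgeR quasi-likelihood). The other 2 lower rows, chosen after their values were seen, were FOXD4L1 and FOXD4L5, near-identical copies with few counts that are uncertain.

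Targets of other inducers of DDIT4 were counted in the same way, beside 11.6% of all genes higher and 9.86% lower past both thresholds. Of 10 hypoxia targets 10 were higher, but CA9, with 1 count in every siControl library, passed the filter on low counts only through siPVT1, and of the other 9 all were higher. The count was 9 whenever a siPVT1 library was left out. Of 10 ATF4 targets 1 was higher and 8 were lower, TRIB3 and SESN2 among them. Of 7 tested glucocorticoid targets 2 were higher and 0 lower, a share of 28.6% beside 21.4% of all genes, and 5 had an adjusted p-value under 0.05, where 58.4% of all genes did. Of these 5, named after their values were seen, KLF9, MT2A and TSC22D3 had log2FC values of 2.14, 1.36 and 0.90. SGK1 and FKBP5 had negative log2FC values of -0.79 and -0.94, and the median log2FC of the 7 was 0.74. The part of any of these inducers in the levels of the 8 genes was not tested.

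**Figure D5:**
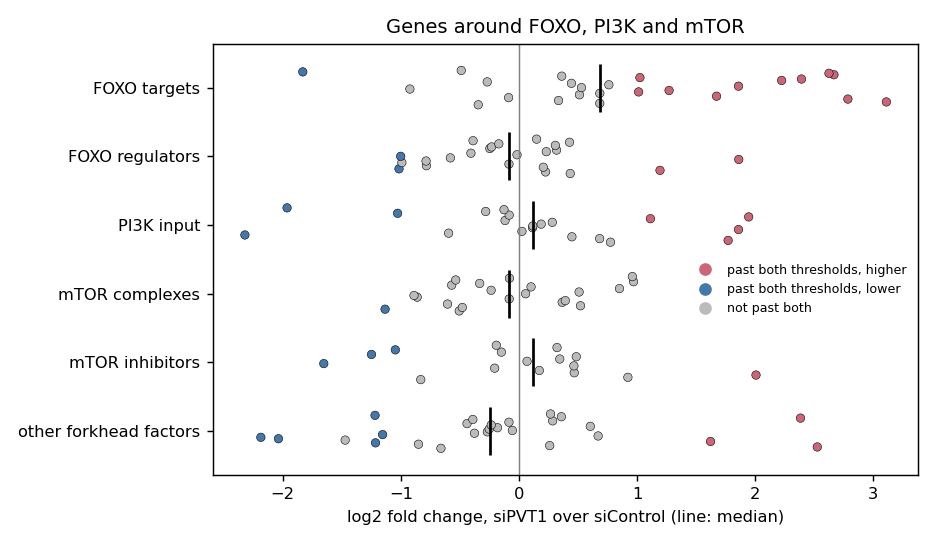
Log2FC of siPVT1 over siControl for each tested gene of 6 lists, with a black line at the median of a list and colour for genes past both thresholds. FOXO targets have a median of 0.68 with 11 higher genes, and mTOR complexes lie between -1.13 and 0.97 with 1 gene past both thresholds.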

How the data were processed

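The authors sequenced mRNA libraries from one end, mapped reads to the GENCODE v35 transcriptome (GRCh38.p13) by STAR and deposited estimated counts per gene symbol from Salmon as whole numbers, without normalization. The submitters' processing notes list STAR 2.7.3a and Salmon 0.14.1, and the strand setting is not given in the sources used here. All columns matched a library label.

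From these counts edgeR 4.0.16 (R 4.3.3) was run over the whole table with TMM scaling, and genes were tested by quasi-likelihood with siRNA as the sole term. Genes with at least 5 normalized counts (DESeq2 size factors) in at least 3 libraries were tested (19008 genes), and p-values were adjusted over all of them by Benjamini-Hochberg. The SE of a log2FC is its size over the square root of the F statistic. Normalized counts are counts divided by TMM library size, scaled to its geometric mean over libraries. Likeness used log2(CPM + 0.1). Gene coordinates and lengths came from GENCODE v44 and promoters from RefSeq, both on GRCh38. The fit was tested on simulated data in which far fewer genes changed than here, so that test does not cover a shift this broad. Alternatives were DESeq2 1.42.0, other scalings and filters, a replicate block and each library left out. The 8 genes and the lists were chosen with earlier results of these data known. Genes named from the lists are up to 3 higher and 3 lower with the smallest p-values, beside paralogs, PVT1 and nearest profiles. A gene that this rule would name is not reported here.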

Additional observations from a re-analysis of the deposited data

How the results depend on the processing

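All 8 genes kept the sign of their log2FC in every setting tried. For FOXO3 the lowest value, 0.05 with scaling by the total count, was smaller than its SE of 0.0889. Log2FC values ranged from 5.57 to 6.48 in DEPP1, 2.13 to 2.7 in PIK3IP1, 1.81 to 2.19 in DDIT4, 1.16 to 1.43 in FOXO1, 1.09 to 1.35 in SESN3, 0.57 to 0.76 in FOXO4, 0.05 to 0.27 in FOXO3 and -1.58 to -1.20 in IRS2, where the ends came from scaling by the total count or from leaving out siPVT1 replicate 1 or 3. In every setting that kept both thresholds 5 of the 8 were called higher and 1 lower. The sum of FOXO3 and FOXO3B was chosen after seeing the data.

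The adjusted p-value alone gave 5543 genes higher and 5556 lower over all genes tested. For the lists it gave 9 higher and 10 lower among FOXO regulators and 8 higher and 3 lower in PI3K input. In mTOR complexes it gave 7 higher and 10 lower, and in mTOR inhibitors 6 higher and 4 lower. FOXO targets had 16 higher and 5 lower, other forkhead factors 7 higher and 10 lower, and glucocorticoid targets 3 higher and 2 lower. Scaling by the total count gave 2 lower genes in mTOR complexes and 1 lower among glucocorticoid targets. For FOXO targets it gave 9 higher and 2 lower, against 11 and 1 with TMM scaling. No filter left 1 lower FOXO regulator. With 1 library left out at a time, lower FOXO regulators ranged from 0 (without siPVT1 replicate 1) to 3. FOXO targets ranged from 9 to 11 higher and from 1 to 2 lower. The mTOR complexes ranged from 0 to 1 higher and from 1 to 2 lower, and higher mTOR inhibitors from 1 to 2. Glucocorticoid targets ranged from 2 to 4 higher (4 without siPVT1 replicate 3) and from 0 to 1 lower. Apart from the settings' own construction, the cause of these moves was not tested.

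Deviations of same-numbered libraries from their group means had correlations of -0.082, 0.093 and 0.01 between siControl and siPVT1 replicates 1, 2 and 3. With 3 libraries in a group this cannot decide whether same-numbered libraries share a culture or batch. With the replicate block 2103 genes were higher and 1816 lower, against 2202 and 1874 without it, and DEPP1 was at 5.95. The block took the SE of DEPP1 from 0.58 to 0.363 and that of FOXO4 from 0.13 to 0.143. DESeq2 gave 2080 and 1697. Depth limits DEPP1 in siControl, and FOXO4 and FOXO6 in both groups.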
